A study of Saccharomyces cerevisiae with 21 samples.

Results

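Budding yeast that lack RNase H2 (rnh201-null) were compared with wild-type (WT) yeast. The assay was ribose-seq, which isolates fragments with a ribonucleotide at their end and so maps it to a single base and strand. The members were chosen by genotype, namely the 3 rnh201-null and the 6 WT libraries among the 21 samples of the series. Both groups were strain BY4742, of mating type MATα, grown to stationary phase without a drug or other agent. The rnh201-null cells lack a functional RNH201 gene, and WT cells carry it intact. The labels do not say how many clones stand behind a genotype. The labels do not say whether libraries came from separate cultures, so p-values measure only the spread between libraries, which may be technical. In limma fits that spread was estimated over all 17 ribose-seq libraries of the series, which also include the genotypes rnh203-K46W and rnh201-G42S. DNA was cut with up to 3 sets of restriction enzymes, and which set a library received is not given in the sources used here.

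DNA polymerases occasionally insert a ribonucleotide in place of a deoxyribonucleotide. RNase H2, with its catalytic subunit Rnh201 and the accessory subunits Rnh202 and Rnh203, cuts beside single ribonucleotides in nuclear DNA and starts their removal by ribonucleotide excision repair. Yeast mitochondrial DNA is copied by its own polymerase, Mip1, and is not repaired by RNase H2, so it served as a standard within each library.

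The deposited unit is a normalized enrichment factor, the reads at a base and strand relative to the DNA depth there and to the mean of the compartment. Nuclear and mitochondrial values are each scaled to their own length, so their sums cannot be set against each other, and read numbers were recovered from the values. The rnh201-null libraries held 1435, 2138488 and 1975898 nuclear reads in replicates 1, 2 and 3. The WT libraries held 1056, 744, 8778, 7108, 10091 and 38605 in replicates 1 to 6. Replicate 1 of rnh201-null was therefore as shallow as the WT libraries, and results are given with and without it. Mitochondrial reads numbered 623, 116802 and 99930 in rnh201-null and 14513 to 1149044 in WT.

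Libraries also differed in a way that crossed the genotypes. By the Spearman correlation of their mitochondrial profiles in 200-base bins, 1 set (A) held rnh201-null replicates 1 and 2 with WT replicates 1, 3 and 6. The other set (B) held rnh201-null replicate 3 with WT replicates 2, 4 and 5. The correlation averaged 0.53 (0.19 to 0.90) for 9 pairs of an rnh201-null and a WT library in the same set. For 9 such pairs in different sets it averaged 0.17 (0.036 to 0.38), so the ranges overlapped. The sets were formed from these correlations, so a higher average within sets follows from their definition and is a description. WT replicate 3 was only slightly closer to set A, averaging 0.46 with set A libraries of the series and 0.36 with set B. Because the sets cross the genotypes, differences are also given within sets. WT replicate 2 stood apart in nuclear DNA, because 26.4% of its nuclear signal lay on 24 minus-strand positions within the first 100 bases of chromosome I. Library numbers formed series 100 (rnh201-null replicates 1 and 2, WT replicates 1 and 2), 200 (the other WT libraries) and 300 (rnh201-null replicate 3), and a number is not stated to be a batch.

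Ribonucleotides were far denser in nuclear relative to mitochondrial DNA in every rnh201-null library than in any WT library. Nuclear density over mitochondrial density, each per base and per DNA depth, had a log2 of -1.38, 1.76 and 1.73 in rnh201-null. It was -9.62, -7.20, -6.44, -6.66, -6.00 and -8.00 in WT. By this measure the deep rnh201-null replicates 2 and 3 held 3.40 and 3.32 times as many reads per nuclear as per mitochondrial base. Every WT library and the shallow rnh201-null replicate lay below equality. On which side of equality replicates 2 and 3 lay depended on the measure. Their log2 was -2.94 and -2.83 without division by DNA depth, and -0.87 and -0.59 with each position counted once. The mean was 0.71 ± 1.80 (SD, n = 3) in rnh201-null and -7.32 ± 1.32 (SD, n = 6) in WT, a difference of 8.03 on the log2 scale, or 260.5-fold. A two-sided exact permutation test gave p = 0.0238, the smallest p that 3 libraries against 6 allow. The p adjusted over 9 tests of 1 value per library was 0.107, so the difference did not pass the correction. With 3 libraries against 6, a difference of any size could not pass it unless other tests also reached their smallest p. The adjusted p therefore does not measure how far the groups lie apart. Without rnh201-null replicate 1 the difference was 9.07, where 0.0714 is the smallest p of the exact permutation test. Within set A it was 8.21, within set B 8.35 with 1 rnh201-null library, and within library series 100 it was 8.60.

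**Figure D1:**
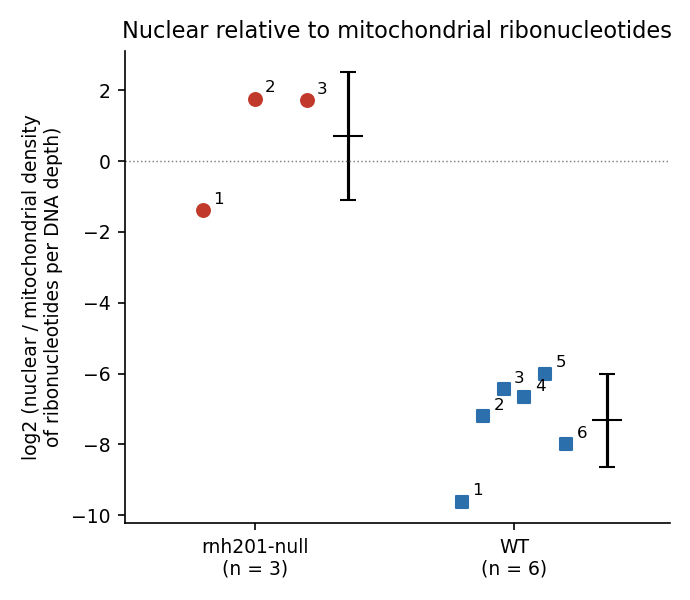
Nuclear over mitochondrial density of ribonucleotides (log2, per DNA depth) in the 3 rnh201-null libraries (circles) and the 6 WT libraries (squares), numbered by replicate, with the mean and SD of each group as black bars. All 3 rnh201-null libraries lie above -1.4 and all 6 WT libraries lie at -6.00 or below.

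The DNA depth that this ratio divides by came from 1 whole-genome sample per genotype, so it has no replicate and no test. At coordinates with a value in both genotypes, median nuclear depth was 171 reads in rnh201-null and 207 reads in WT, over 20258 coordinates. Median mitochondrial depth was 4314 reads in rnh201-null and 3591 reads in WT, over 24562 coordinates. Mitochondrial DNA was thus 25.2 times as deep as nuclear DNA in the rnh201-null sample and 17.3 times in the WT sample, a 1.45-fold difference. Without division by depth the log2 difference in density was 7.45, against 8.03 with it.

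Values were missing around RNH201, the gene of the catalytic subunit, in rnh201-null. At the approximate place of the gene, the 3 rnh201-null libraries left a gap of 917 bases on chromosome XIV (build sacCer2), from 490322 to 491238. The edges of this stretch were set by the nearest rnh201-null positions on either side. That it held no position in these libraries therefore follows from its definition, and its length is a description. In the 1000 bases before it the rnh201-null libraries had 1, 134 and 82 positions with a value, and in the 1000 bases after it 0, 175 and 128. Within the stretch the WT libraries had 0, 0, 1, 1, 0 and 8 positions. The RNH201 gene (YNL072W) spans 924 bases in the RefSeq table of another assembly, in which its neighbours are MSK1 and LAT1. No gene annotation of the files' build was used, so the exact edges of the gene are not given. The values are divided by the DNA depth of the genotype, so a stretch missing from that DNA would lack values in every library of the genotype.

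The deep rnh201-null libraries had ribonucleotides at a sizeable share of all nuclear bases and mostly once per base. Replicate 2 had 1535413 nuclear positions, or 6.37% of all bases and strands, and replicate 3 had 1334066, or 5.54%. Replicate 1 had 1435 positions and 1 read at each. The WT libraries covered 0.00265% to 0.152% of bases and strands, with 639 to 36638 positions. In rnh201-null replicates 2 and 3, 76.3% and 74.6% of nuclear positions held 1 read, and 0.876% and 1.58% held more than 5. At this occupancy the depth of the library sets how many positions are seen, so reads on an occupied position are given at equal read numbers.

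Thinned to 744 nuclear reads, the total of the shallowest library, the share of reads on an already occupied position was 0%, 0.0182% and 0.0294% in rnh201-null. In WT it was 3.55%, 14.1%, 0.659%, 0.791%, 0.45% and 0.219%. The ranges did not overlap, but within WT the share fell as library depth grew, being highest at 744 reads (replicate 2) and lowest at 38605 reads (replicate 6). The reads carry no molecular identifiers, so copies of 1 molecule count as reads, and thinning removes such copies more strongly from deeper libraries. Of the 9 libraries only rnh201-null replicate 1, with 1435 reads and a share of 0%, stood out of this order. Depth and genotype therefore cannot be told apart here for the deep rnh201-null libraries. The exact permutation test of distinct positions, among the 9 adjusted together, gave p = 0.0238 (adjusted p = 0.107) and cannot separate them. As distinct positions per 744 reads the mean was 743.9 ± 0.110 (SD, n = 3) in rnh201-null and 719.5 ± 40.5 (SD, n = 6) in WT. The difference of 24.4 positions was 8.32 without WT replicate 2, 3.76 between the 2 deep rnh201-null libraries and WT replicates 3 to 6, and 24.4 without rnh201-null replicate 1. Within set A it was 10.9, within set B 37.9, and within series 100 it was 65.7.

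For mitochondrial reads the ranges overlapped. Thinned to 623 reads, 9.47%, 7.33% and 10.3% of mitochondrial reads fell on an occupied position in rnh201-null. The WT shares were 6.33%, 17.7%, 6.73%, 9.72%, 7.27% and 5.49%, and the same limit on copies and depth holds. Distinct positions averaged 566.7 ± 9.55 (SD, n = 3) in rnh201-null and 567.7 ± 28.5 (SD, n = 6) in WT. The difference of -1.01 positions turned its sign when single libraries were left out, for example to 0.337 without rnh201-null replicate 1.

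**Figure D2:**
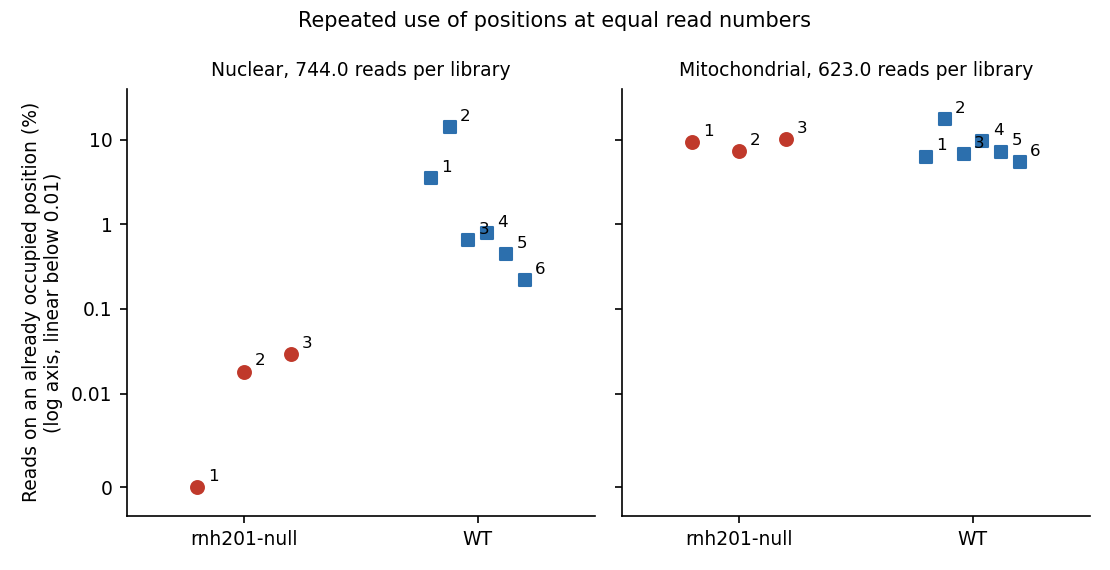
Percent of reads that fell on an already occupied base and strand after thinning every library to the same number of reads (log axis, linear below 0.01), for nuclear reads (left) and mitochondrial reads (right), with replicates numbered. Nuclear shares run from 0 to 0.0294% in rnh201-null and from 0.219% to 14.1% in WT, where the share falls with library depth, while mitochondrial shares of both genotypes overlap.

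Some nuclear bases were high in both deep rnh201-null libraries. Positions were ranked by the lower of the values of replicates 2 and 3. The first was chromosome XII 838921 on the minus strand, with an enrichment factor of 250.3 in replicate 2 (41 reads) and 493.5 in replicate 3 (75 reads). It was followed by XI 146158 on the plus strand, with 337.4 and 211.2 (62 and 36 reads), and by XV 116735 on the minus strand, with 206.3 and 256.6 (39 and 45 reads). The other 7 of the first 10 lay on chromosomes IV (2), X, XII, XIII, XV and XVI, with 14 to 77 reads in either library. None of the 10 had a value in rnh201-null replicate 1 or in a WT library, and at 744 to 38605 nuclear reads a missing value there sets no level. These positions were chosen for their values in both libraries, so their agreement is a description.

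In WT only 6 nuclear positions had a value in at least 3 of the 6 libraries, and the 5 highest by mean rested on 1 to 13 reads a library. The first, chromosome I 46 on the minus strand, held 2 reads in rnh201-null replicate 3, against 13, 2 and 6 reads in WT replicates 2, 4 and 5. Next came XV 1091284 on the plus strand, with 2 reads in rnh201-null replicate 3 and 1, 1 and 2 reads in WT replicates 2, 4 and 5. Both lie at a chromosome end. The enrichment factor of a single nuclear read at typical depth was 5.57 and 6.04 in the deep rnh201-null libraries, 8379 in rnh201-null replicate 1, and 311.1 to 13582 in WT. A high enrichment factor at a WT position can therefore be 1 read.

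The deep rnh201-null libraries shared more bases than their coverage gives, and the excess was sharpest at the exact base. They had 174507 nuclear positions in common, which is 11.4% of the positions of replicate 2 and 13.1% of those of replicate 3. Replicate 2 covered 6.37% of all bases and strands, and replicate 3 covered 5.54%. Excess sharing was not particular to rnh201-null. Of nuclear positions of the WT libraries, 8.14% to 18.2% were found in rnh201-null replicate 2 and 8.68% to 32.6% in replicate 3. For positions of replicate 3, the share with a replicate 2 position on the same strand was 13.1% at the same base, 8.51% at 1 base and 7.58% at 10 bases, and it declined to 6.76% at 2000 bases. On the opposite strand the share was 8.42% at the same coordinate and 6.59% at 1 base. Positions with more reads were shared more often. Of replicate 2 positions with 1 read, 9.92% were found in replicate 3, against 14.02% of those with 2 reads, 18.8% with 3 to 5 and 28.1% with more than 5. In the other direction the shares were 11.6%, 15.4%, 19.4% and 26.3%. Of positions of WT replicate 6, 14.5%, 21.2%, 22.9% and 29.2% were found in rnh201-null replicate 3. With rnh201-null replicate 2 the shares of WT replicate 6 were 16.4%, 16.6%, 18.6% and 25%, nearly level up to 2 reads. The upper classes of WT replicate 6 were small, with 210 positions at 3 to 5 reads and 48 at more than 5.

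Within one library, neighbouring bases were filled together over short distances. In rnh201-null replicate 2, 23.0% of positions had another detected position at 1 base on the same strand, 19.6% at 10 bases, 12.98% at 50 and 6.55% at 100, near the 6.37% over all bases. On the opposite strand the share was 6.33% at 1 base and reached 9.25% at 300 bases. Replicate 3 had 26.0%, 22.8%, 17.4% and 12.4% at those same-strand distances, and its opposite-strand share reached 7.84% at 300 bases.

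**Figure D3:**
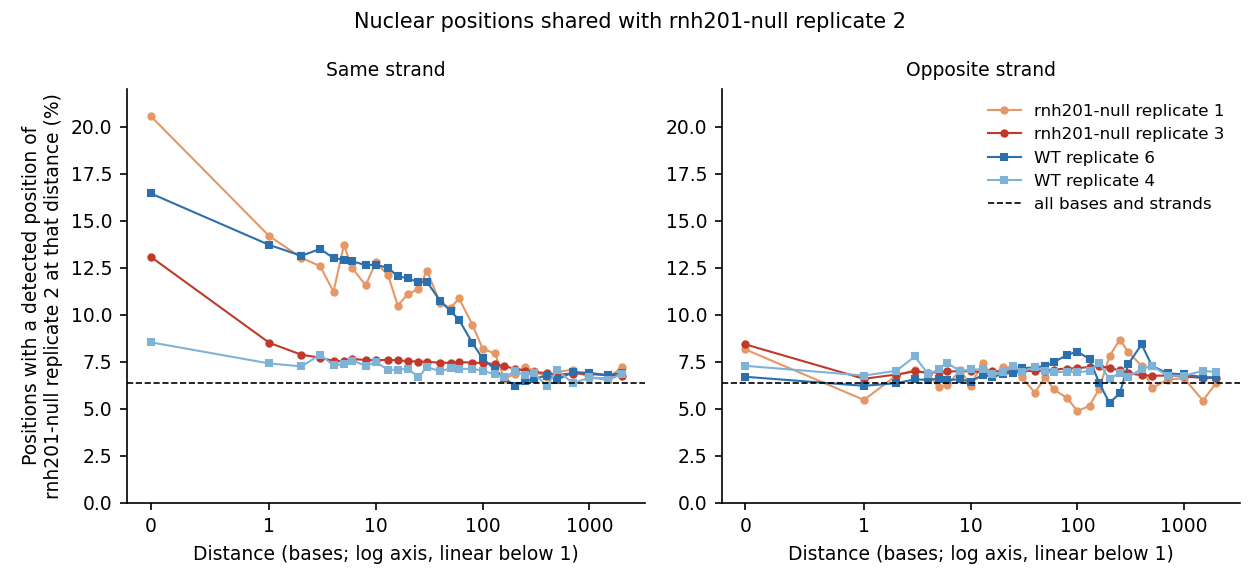
Percent of nuclear positions of rnh201-null replicates 1 and 3 and of WT replicates 4 and 6 that have a detected position of rnh201-null replicate 2 at the given distance in bases (log axis, linear below 1), on the same strand (left) and the opposite strand (right). The dashed line marks the 6.37% of all bases and strands that replicate 2 covers. The same-strand step between distances of 0 and 1 is largest for the rnh201-null libraries, to 20.6% in replicate 1 and 13.1% in replicate 3. At a distance of 0 WT replicate 6 stands at 16.5% and WT replicate 4 at 8.53%.

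To set WT and rnh201-null libraries side by side without this local clustering, the share of positions found at the same base was divided by the share at 2 to 10 bases on the same strand. A ratio of 1 means that the exact base is shared no more than its surroundings. Set against rnh201-null replicate 2, the ratio was 1.67 in rnh201-null replicate 1 and 1.71 in replicate 3. In WT it was 1.41, 1.11, 1.12, 1.15, 1.28 and 1.28 in replicates 1 to 6. Both rnh201-null libraries lay above all WT libraries, the nearest being WT replicate 1, whose 95% Poisson interval was 1.21 to 1.63 and overlapped that of rnh201-null replicate 1, 1.48 to 1.87. These intervals cover counting error only.

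Set against rnh201-null replicate 3, the ratio was 2.15 in rnh201-null replicate 1 and 1.71 in replicate 2. In WT it was 1.37, 1.10, 1.01, 1.13, 1.14 and 1.18. Again both rnh201-null libraries lay above all 6 WT libraries. The mean difference was 0.47 with replicate 2 and 0.77 with replicate 3, and each exact permutation test gave p = 0.0714, the smallest that 2 libraries against 6 allow, with an adjusted p of 0.161. The measure was chosen after the data were seen, and the pair of rnh201-null replicates 2 and 3 enters both comparisons with the same ratio. Without rnh201-null replicate 1 a single rnh201-null library remained, with differences of 0.49 and 0.56. With WT replicate 6 as the second library the order was not seen: the ratio was 0.769, 1.28 and 1.18 in rnh201-null replicates 1 to 3 and 2.11, 1.13, 1.55, 1.39 and 1.09 in WT replicates 1 to 5. These rest on few shared positions in the shallow libraries, 5 in rnh201-null replicate 1 and 5 to 84 in WT.

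**Figure D4:**
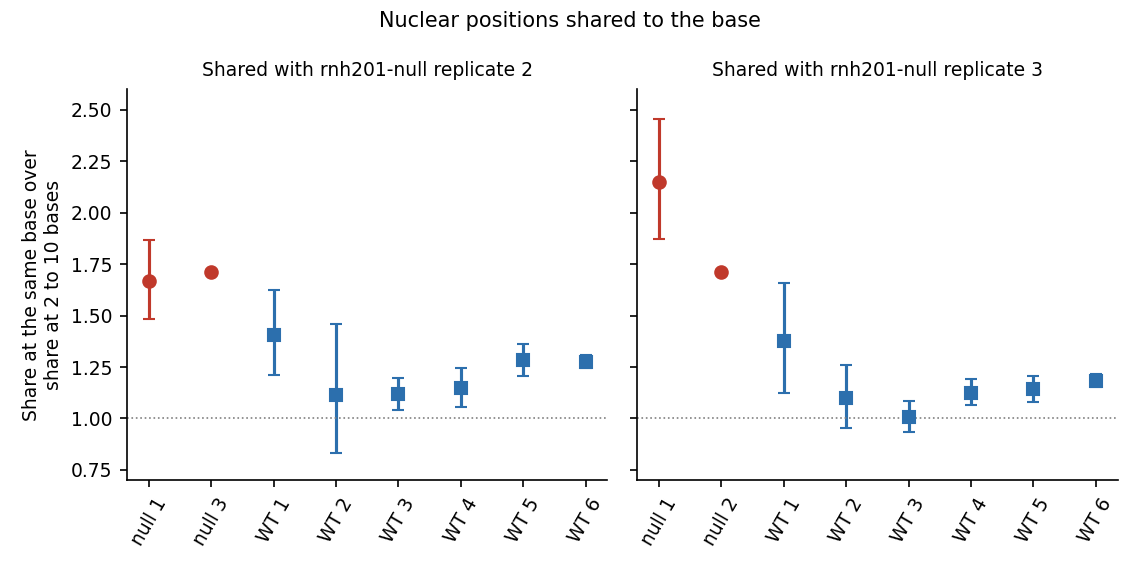
Share of nuclear positions found at the same base divided by the share at 2 to 10 bases, with rnh201-null replicate 2 (left) and replicate 3 (right) as the second library. Circles are rnh201-null and squares WT libraries, bars are 95% Poisson intervals of the shared count, and both rnh201-null libraries lie above the 6 WT libraries in each panel.

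WT libraries differed among themselves in how much they shared the surroundings of rnh201-null positions. At 2 to 10 bases, 29.6% of positions of WT replicate 2 and 16.3% of those of WT replicate 4 had a position of rnh201-null replicate 3, which covers 5.54% of all bases. The same WT libraries had 7.30% and 7.45% with rnh201-null replicate 2, which covers 6.37%. WT replicate 5 had 11.6% with rnh201-null replicate 3 and 8.27% with replicate 2. These 3 WT libraries are in mitochondrial set B with rnh201-null replicate 3. Of the set A libraries, WT replicate 1 had 7.76% with rnh201-null replicate 3 and 12.97% with replicate 2, the set A library. WT replicates 3 and 6, also of set A, showed little preference, with 8.62% and 12.5% for rnh201-null replicate 3 and 8.91% and 12.90% for replicate 2. What part the sets have in the sharing was not tested.

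In mitochondrial DNA the same-base ratios of rnh201-null and WT libraries overlapped. With rnh201-null replicate 2 the ratio of the same base to its surroundings was 1.66 and 1.28 in rnh201-null replicates 1 and 3, and 1.19 to 1.40 in WT. With replicate 3 it was 1.52 and 1.28 in rnh201-null replicates 1 and 2, and 1.16 to 1.44 in WT. The exact permutation tests gave p = 0.429 and p = 0.357, adjusted p 0.643 for both. The plain share differed widely between libraries. Of mitochondrial positions of WT replicate 2, 82.8% were found in rnh201-null replicate 3 and 33.3% in rnh201-null replicate 2. For WT replicate 5, of the same set B, the shares were 27.2% and 33.5%. Of the 564 mitochondrial positions of rnh201-null replicate 1, 93.8% were found in WT replicate 6, which covers 35.9% of mitochondrial bases and strands.

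Nuclear chromosomes had nearly even levels in the deep rnh201-null libraries. Relative to the nuclear mean, the 16 chromosomes ranged from 0.828 (I) to 1.04 (IV) in replicate 2 and from 0.912 (I) to 1.05 (XII) in replicate 3. In the shallow replicate 1 they ranged from 0.7999 (VIII) to 1.38 (VI). The limma fit over all 17 ribose-seq libraries called 0 of 16 chromosomes (0%) different between rnh201-null and WT at an adjusted p under 0.05, with 1 at an unadjusted p under 0.05. Without rnh201-null replicate 1 limma had 0 of 16 at either level, with a lowest adjusted p of 0.542. With only the 9 libraries of both genotypes it also had 0 of 16 at either level, with a lowest adjusted p of 0.882. The chromosome at an unadjusted p under 0.05 in the fit over 17 libraries was XII. Its levels were 1.09, 1.02 and 1.05 in rnh201-null, against 0.963, 0.830, 0.928, 0.970, 0.897 and 1.02 in WT. Its log2 difference was 0.18 ± 0.07 (SE; limma adjusted p = 0.255). With weights per library the limma fit called it (0.15, adjusted p = 0.0461), and with library series as a covariate it called chromosome XVI instead (0.26, adjusted p = 0.0314). Chromosome XVI had 0.922, 0.991 and 0.984 in rnh201-null, and 0.779, 0.752, 0.944, 0.941, 0.9002 and 0.916 in WT. Chromosomes VII (0.14), I (-0.996) and XV (0.14), also named for their small p, did not pass. On chromosome I the levels were 0.825, 0.828 and 0.912 in rnh201-null and 0.731 to 14.2 in WT, the highest being WT replicate 2, whose signal at the end of that chromosome is given above.

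**Figure D5:**
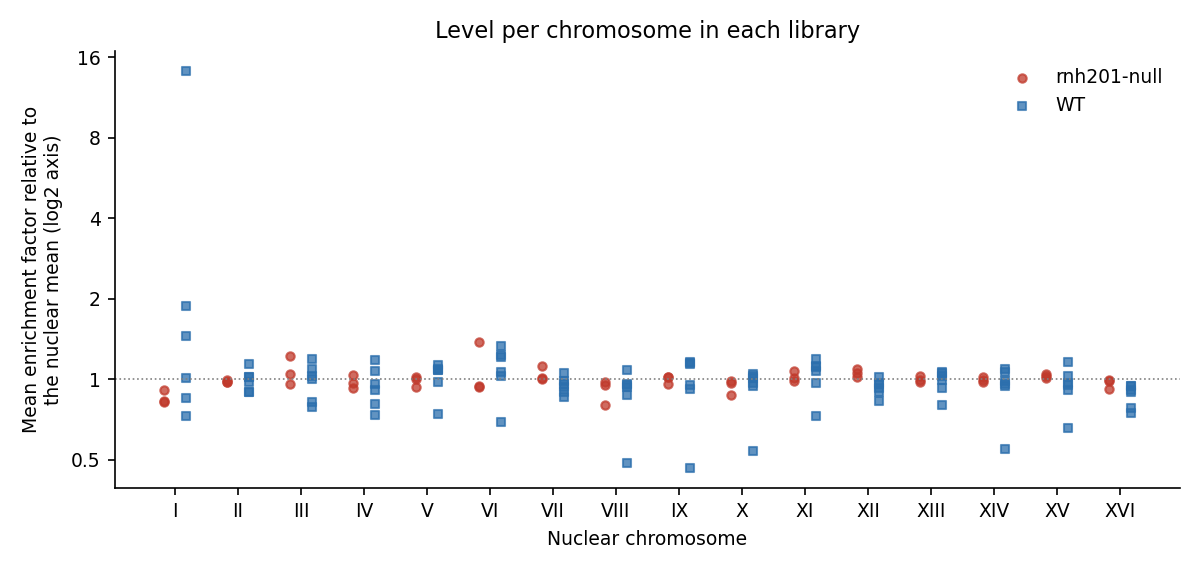
Mean enrichment factor of each nuclear chromosome relative to the nuclear mean (log2 axis) in the 3 rnh201-null libraries (circles, left) and the 6 WT libraries (squares, right). On chromosome XII the rnh201-null levels are 1.02 to 1.09 and the WT levels 0.830 to 1.02, and the point at 14.2 on chromosome I is WT replicate 2.

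In windows of 50 kb the limma fit called 0 of 240 windows (0%), with 19 at an unadjusted p under 0.05, and 6 without rnh201-null replicate 1. Across windows the level varied with an SD of 0.463 in rnh201-null replicate 1, 0.150 in replicate 2 and 0.185 in replicate 3, and of 0.220 to 4.12 in WT. The smallest p belonged to chromosome XII 600001 to 650000, at 1.06, 1.24 and 1.49 in rnh201-null. In WT it stood at 0.464, 0.559, 0.539, 0.803, 0.798 and 1.06. Only WT replicate 6 reached the lowest rnh201-null library there, and the log2 difference was 0.79 ± 0.20 (SE; limma adjusted p = 0.252). The limma fit called it higher without WT replicate 6 (0.91, adjusted p = 0.0289), with library weights (0.66, adjusted p = 0.0278), and with 3 profile clusters and weights (0.75, adjusted p = 8.84e-04). The last of these settings was not planned. With the clusters alone limma called no window (lowest adjusted p = 0.0643). The same held with the profile set (0.203), with positions counted once (0.312), and without rnh201-null replicate 1 and WT replicates 1 and 2 (0.267). On chromosome XI 550001 to 600000 the levels were 0.479, 0.907 and 0.930 in rnh201-null, against 2.45, 1.42, 1.02, 1.31, 1.16 and 0.989 in WT, without overlap. The next 4 windows by p, XI 550001, VII 650001, XIII 50001 and XII 50001, had differences of -0.76, 0.93, -0.49 and 1.03 and an adjusted p of 0.343 each in limma. With only the 9 libraries of both genotypes limma called 0 windows, with 6 at an unadjusted p under 0.05 and a lowest adjusted p of 0.938. With library series as a covariate limma called 17 windows, 16 of them higher in rnh201-null, among them XII 600001, VII 650001 and XII 50001. In that fit WT and rnh201-null meet within a series only in series 100. This series holds the deep rnh201-null replicate 2 (2138488 nuclear reads) and the shallow rnh201-null replicate 1 and WT replicates 1 and 2 (1435, 1056 and 744). Window levels are relative to the nuclear mean, and in WT replicate 2 chromosome I stood at 14.2 times that mean. The median log2 difference over the 240 windows was 0.26 with series, 0.13 in the main fit and 0.013 without WT replicate 2. What part WT replicate 2 has in the calls with series was not tested.

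Both strands of nuclear DNA held similar shares in every library but WT replicate 2. The plus strand held 47.0%, 49.8% and 50.1% of the nuclear signal in rnh201-null and 49.7%, 35.7%, 49.3%, 49.4%, 49.3% and 50.8% in WT. The difference of means was 1.6 percentage points, and -0.74 without WT replicate 2. The exact permutation test gave p = 1, and without rnh201-null replicate 1 the difference was 2.59 (exact permutation p = 0.5). On mitochondrial DNA the plus strand held 45.9%, 45.1% and 48.5% in rnh201-null. The WT shares were 46.9%, 47.1%, 48.8%, 47.2%, 45.9% and 46.9%. The difference was -0.63 percentage points (exact permutation p = 0.5, adjusted p 0.643).

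Strand asymmetry, plus minus minus over their sum, was small in 50-kb windows of the deep rnh201-null libraries. Its SD over windows was 0.511 in rnh201-null replicate 1, 0.065 in replicate 2 and 0.128 in replicate 3, and 0.187 to 0.742 in WT. The WT libraries held far fewer nuclear reads than the deep rnh201-null libraries, and what part read number has in this spread was not tested. The limma fit called 0 of 240 windows (0%), with 29 at an unadjusted p under 0.05, and 3 without rnh201-null replicate 1. The smallest p belonged to chromosome IV 1500001 to 1525447, where the asymmetry was -1, 0.0061 and -0.044 in rnh201-null and 1, 1, 0.328, 0.203, 0.415 and -0.025 in WT. Values of 1 and -1 are libraries whose reads in the window all lie on 1 strand, and the shallow rnh201-null replicate 1 takes part in the difference of -0.83 ± 0.24 (SE; limma adjusted p = 0.177). The next 4 windows were VII 350001, X 400001, XII 200001 and XVI 700001, with differences of -0.58, -0.56, -0.83 and -0.70 and limma adjusted p of 0.177 to 0.228. With library series as a covariate limma called 29 windows, 11 higher and 18 lower, including all 5 of these. With only the 9 libraries of both genotypes limma called 0, with 6 at an unadjusted p under 0.05 and a lowest adjusted p of 0.835. As a description over 240 windows that share their DNA sequence, asymmetry correlated at r = 0.320 between rnh201-null replicates 2 and 3. The r of rnh201-null replicate 3 was 0.465 with WT replicate 6 and 0.324 with WT replicate 4, and that of replicate 2 was 0.109 with WT replicate 6 and 0.030 with WT replicate 4.

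Mitochondrial ribonucleotides were unevenly spread along the chromosome in both genotypes. Of 172 windows of 1 kb by strand, the number that held 50% of the signal was 34, 23 and 18 in rnh201-null and 43, 18, 25, 27, 28 and 37 in WT. The limma fit called 0 of 172 (0%), with 18 at an unadjusted p under 0.05. The 5 with the smallest p were all lower in rnh201-null, by 1.90 to 2.09 on the log2 scale, with an adjusted p of 0.236 each. At mitochondrial 31001 to 32000 on the plus strand the level relative to the mitochondrial mean was 0.285, 0.097 and 0.618 in rnh201-null. In WT it was 1.38, 1.99, 1.89, 1.0, 1.39 and 1.68, so every WT library exceeded every rnh201-null library, and the log2 difference was -2.09 ± 0.58 (SE; limma adjusted p = 0.236). With the profile set as a covariate limma called this window lower (-1.95, adjusted p = 0.0452), together with 12001 (-2.78) and 56001 (-2.76) on the plus strand (adjusted p = 0.0242 each). The profile set was itself formed from the mitochondrial signal, which lowers the remaining spread, so these calls are a description. Without rnh201-null replicate 3 limma called 6 windows, all lower, among them 31001 (-2.56) and 76001 (-2.55) on the plus strand and 65001 (-2.61) on the minus strand. Replicate 3 is the set B library of rnh201-null. The fit without it rests on replicate 2 and the shallow replicate 1 (623 mitochondrial reads). Of the 172 windows, 29 had no signal in replicate 1, against 0 in replicate 2 and 14 in replicate 3. In the limma fit without rnh201-null replicate 1 and WT replicates 1 and 2, the 3 named windows had -2.05, -1.87 and -0.89, and 0 windows were called. Without rnh201-null replicate 1 limma called 0, with 15 at an unadjusted p under 0.05. With only the 9 libraries of both genotypes it called 0, with 12 at an unadjusted p under 0.05 and a lowest adjusted p of 0.366.

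Single mitochondrial bases were heavily used in both genotypes. The highest by the lower value of rnh201-null replicates 2 and 3 was 59528 on the minus strand, with no value in rnh201-null replicate 1 and 452.4 and 104.9 in those libraries (599 and 132 reads). In WT it had 0.9, 115.5, 1.9, 98.8, 41.9 and 59.5, that is, high in 4 libraries and near 1 in WT replicates 1 and 3. The next, 16703 on the minus strand, had 210.7 and 80.5 in rnh201-null and 7.8 to 44.1 in 5 WT libraries. The other 3, 76768 and 16640 on the minus strand and 60061 on the plus strand, had 40.4 to 96.5 in rnh201-null and had values in 5 or 6 WT libraries.

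The bases highest by the median of WT behaved differently between the rnh201-null libraries. At 760 on the minus strand the enrichment factor was 103.1 in rnh201-null replicate 3 and no value was listed in replicates 1 and 2. WT replicates 2 to 6 had 85.7, 185.9, 381.3, 280.2 and 2.6 there. Positions 735, 737 and 748 on the minus strand were alike: rnh201-null replicate 3 had 46.1 to 70.1 at them, again without a value in replicates 1 and 2. The last of the 5, 15123 on the plus strand, had 2.0 in rnh201-null replicate 3 and 258.3, 205.5 and 301.2 in WT replicates 3, 4 and 5. At all 5 positions WT replicate 1 had no value and WT replicate 6 had 0.057 to 6.16, and both belong to set A with rnh201-null replicates 1 and 2. WT replicate 3, also of set A, was high at them, with 138.5 to 258.3.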

How the data were processed

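Per the labels, reads of 17 ribose-seq libraries were trimmed, aligned to sacCer2 with Ribose-Map and filtered for artifacts with its Coordinate module and custom scripts; the submitters' processing notes also name cutadapt. The series holds 4 whole-genome samples besides. The deposited table holds a ratio, a normalized enrichment factor per base and strand, with normalization not given in the sources used here. Its 8216036 lines were merged by position and strand into 6633594 positions. The values equalled a library constant times reads over a whole-number DNA depth. Reads and depth were recovered from this (a whole number within 1e-04), and at least 99.9% of values gave a whole depth. The search took the matching depth nearest to a local estimate. Some matches can thus arise without being the true depth, more so at the high mitochondrial depths.

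Values per library were compared by two-sided exact permutation tests of the difference of means (scipy 1.17.1), adjusted by Benjamini-Hochberg over 9 tests. Windows (log2 of the relative mean, plus 0.1 except for chromosomes) and strand asymmetry were fitted with limma 3.58.1 (R 4.3.3) over 17 libraries, without covariates, with an adjusted p under 0.05 as the call. Same-base sharing used the detected positions of each library. Thinning to equal reads and the shares by read number used the recovered reads, which carry no molecular identifiers. Scripts were tested on simulated data. Replicates were numbered in accession order. Members, windows and named positions follow a rule written with earlier results of these data known: the 5 windows with the smallest p where fewer pass, the 10 nuclear and 5 mitochondrial positions highest in both deep rnh201-null libraries, and the 5 highest WT positions of each compartment. Base identity at ribonucleotides was not analysed here.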

Additional observations from a re-analysis of the deposited data

Results flagged for a closer look

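WT replicate 2, the shallowest nuclear library, lay far from the other 5 WT libraries in 4 values. Its nuclear plus-strand share was 35.65%, its distinct nuclear positions per 744 reads were 639 and its distinct mitochondrial positions per 623 reads were 512.5. Its level on chromosome I was 14.24 times the nuclear mean. Single libraries also stood apart in 3 of the windows named for their small p. WT replicate 1 had 2.454 at chromosome XI 550001 to 600000, WT replicate 3 had 1.651 at mitochondrial 76001 to 77000 on the plus strand, and WT replicate 4 had 2.255 at mitochondrial 69001 to 70000 on the plus strand. Among 29 WT groups examined by the gap between the end value and its neighbour, about 1 in 20 would stand apart by chance.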

How the results depend on the processing

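The density difference kept its direction in 18 of 18 alternatives, from 6.84 with positions counted once to 9.07 without rnh201-null replicate 1. No value per library passed the adjusted threshold, which none could pass by itself at these numbers of libraries. The nuclear plus-strand difference turned to -0.74 without WT replicate 2, -1.56 within set A and -0.27 with positions counted once, and leaving out 1 library gave -0.74 to 2.59. The mitochondrial one was 1.747 within set B and likewise within its equivalent among 3 profile clusters, -2.72 within the cluster of rnh201-null replicate 2, and -1.61 to 0.054 with 1 library left out. Nuclear positions differed by 65.7 within series 100 and by 8.32 to 29.0 with 1 library left out. Mitochondrial positions turned to 22.6 within series 100 and 0.180 thinned to 300 reads, and gave -12.0 to 3.21 with 1 library left out. Same-base sharing, added after the data were seen, was 0.26 (nuclear, replicate 2) and 0.32 (mitochondrial, replicate 3) within the cluster of rnh201-null replicate 1 and WT replicate 1. Limma called 0 chromosomes but 1 with weights or series. It called 0 nuclear windows but 1 without WT replicate 6, 1 with weights, 1 with clusters and weights and 17 with series; leaving out 1 library gave 0 to 1. It called 0 asymmetry windows but 1 with clusters and weights and 29 with series. It called 0 mitochondrial windows but 3 with set, 3 with clusters, and 0 to 6 with 1 library left out. Set and clusters were formed from the same mitochondrial signal, and the fits with clusters were not planned. The cause of these changes was not tested. Base shares at ribonucleotides were not run, because no genome of the build was at hand. No paired analysis was possible because the replicate numbers follow accession order and pair no libraries. Nuclear depth of 744 to 38605 reads limits the nuclear WT values.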
